A study of Mus musculus with 9 samples.

Results

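Apoh, Serpina10 and Habp2 are mouse genes for secreted proteins that are best known as products of the liver found in blood plasma, and all 3 were listed in RNA from the base of ileal crypts. They were picked out as 3 of the 18220 rows of the table by NCBI gene number (11818, 217847 and 226243), and they were chosen on the levels they showed in these same libraries. Their levels and differences are therefore given as a description, with no test. The measure was RNA-seq of the intestinal stem cell niche, cut out of small intestine by laser microdissection, in 3 groups of 3 biological replicates each. The first group held AKR mice aged 25 weeks and the second SAMP/YitFc (SAMP) mice aged 5 weeks, and the study's design calls both free of inflammation. The last group held SAMP mice aged 25 weeks with severe ileitis resembling Crohn's disease, a condition that this strain develops on its own. All 9 libraries are labelled wild type, no group was given an agent, and the labels give no sex. A culture protocol for crypts also stands in the labels, and its relation to the captured tissue is not given there. Strain and inflammation differ together between the SAMP 25 wk and AKR 25 wk groups, and age and inflammation differ together between the SAMP groups. Strain and age differ together between the SAMP 5 wk and AKR 25 wk groups. Within each comparison these cannot be told apart.

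The proteins meet in blood clotting and its control, as known mainly from human plasma. Apoh encodes beta-2-glycoprotein I, also called apolipoprotein H, which binds anionic phospholipids and lipoproteins and is the main target of the antibodies of antiphospholipid syndrome. Serpina10 encodes the protein Z-dependent protease inhibitor, a serpin that blocks activated clotting factor X on membranes with protein Z as its cofactor. Habp2 encodes a plasma protease that binds hyaluronan, is also named factor VII-activating protease, and can activate pro-urokinase. Crypt bases hold stem cells and Paneth cells, which secrete antimicrobial proteins, and the liver and the intestinal epithelium share several of the transcription factors that drive plasma protein genes in hepatocytes.

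Estimated depth was 6960000 to 10220000 reads per library. Levels are FPKM, fragments per kilobase of transcript scaled to library size. The crypt base label was checked against defining markers: Lgr5, which marks stem cells, was listed at 9.62 to 23.43 FPKM over the 9 libraries, and Lyz1, a Paneth cell lysozyme, at 5435 to 36165. A pair of libraries stood apart from their groups. AKR 25 wk replicate 2 had 1364 FPKM of Apoa1, an apolipoprotein of absorptive enterocytes, against 0.31 to 13.33 elsewhere. SAMP 25 wk replicate 3 had 176.75 FPKM of Xist and 0.14 of the Y-linked gene Eif2s3y, whereas the other libraries had at most 1.32 of Xist and at least 14.53 of Eif2s3y.

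Apoh lies on the forward strand of chromosome 11 (GRCm38, 108395297 to 108414396, 8 exons), Serpina10 on the reverse strand of chromosome 12 (103616675 to 103631490, 5 exons) and Habp2 on the forward strand of chromosome 19 (56287109 to 56320820, 12 exons). Spans are those of the RefSeq genes, and exon counts are those of the transcript listed for each gene. The Habp2 transcript with 12 exons runs from 56287922 to 56320822 in GENCODE. No promoter entry for Serpina10 was available, so windows are shown for Apoh and Habp2 only. In Apoh the window is the 250 bases before the RefSeq transcript start. In Habp2 it is the 250 bases before the start used in the promoter annotation, which lies inside the gene's span. Both windows are shown because factors shared by liver and gut were among the genes measured. They come from RefSeq (GRCm38.p6), read 5′ to 3′ on the gene's strand, from chr11:108395047-108395296 and chr19:56287662-56287911. Capitals mark matches to either of 2 motifs searched on both strands.
Apoh: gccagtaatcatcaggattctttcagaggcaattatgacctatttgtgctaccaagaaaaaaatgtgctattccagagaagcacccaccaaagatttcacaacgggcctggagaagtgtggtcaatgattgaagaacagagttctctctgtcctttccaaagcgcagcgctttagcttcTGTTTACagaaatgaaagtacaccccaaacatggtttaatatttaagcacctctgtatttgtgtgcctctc
Habp2: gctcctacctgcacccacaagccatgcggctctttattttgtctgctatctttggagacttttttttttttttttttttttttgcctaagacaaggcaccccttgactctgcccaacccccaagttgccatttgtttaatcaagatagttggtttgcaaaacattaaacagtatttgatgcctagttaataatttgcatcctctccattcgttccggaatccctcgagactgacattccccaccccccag
In Apoh the capitals are the forkhead core TGTTTAC, 71 to 65 bases before the start, which 3.17% of 32851 promoter windows of the same length hold on either strand. These letters had no match in the Habp2 window, and the HNF4 site CAAAGTCCA, held by 0.384% of windows, had none in either sequence. For the transcript matched to RefSeq, GENCODE places the first exon of Apoh from 108395293. The last bases of the Apoh window therefore lie in an annotated 5′ untranslated region. Other GENCODE transcripts of Apoh start upstream of the window, at 108343354, 108381164 and 108381169. The Habp2 window lies inside the RefSeq span of the gene but in no exon. The motifs were chosen after the windows were seen, so the shares of windows with a match test nothing. A match of these letters is a description and not a site of binding.

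Apoh was low in both groups without inflammation and high in all SAMP 25 wk libraries. Its level was 0.69, 1.18 and 0.62 FPKM in the AKR 25 wk libraries, 2.11, 0.11 and 0.85 in the SAMP 5 wk libraries, and 21.93, 49.09 and 46.14 in the SAMP 25 wk libraries. The SAMP 25 wk libraries did not overlap either other group, while AKR 25 wk and SAMP 5 wk overlapped each other. Of the 11775 genes tested, those with a mean of at least 1 FPKM over all libraries, 6.6% lay wholly higher in SAMP 25 wk than in AKR 25 wk and 7.95% wholly higher than in SAMP 5 wk. Group means were 0.83 ± 0.305 FPKM in AKR 25 wk, 1.02 ± 1.01 in SAMP 5 wk and 39.05 ± 14.9 in SAMP 25 wk (SD, n = 3 each). The lowest SAMP 25 wk library was 18.6 times the highest AKR 25 wk library and 10.4 times the highest SAMP 5 wk library, and the ratios of the means were 47.1 and 38.2. About 1.0 to 16.7 reads stood behind each value outside the SAMP 25 wk group, against 214.8 to 432.9 in it, so the order of the low libraries rests on few reads. On the log2(FPKM + 1) scale, Apoh differed by 4.38 ± 0.38 (SE) from AKR 25 wk and by 4.35 ± 0.38 from SAMP 5 wk, while SAMP 5 wk and AKR 25 wk differed by 0.03 ± 0.38. From the highest, these ranked 19 and 6 among the 11775 genes. All 3 genes passed the filter on low values, and Apoh passed it only through the SAMP 25 wk libraries.

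Serpina10 had the opposite order. Its level was 9.22, 12.50 and 14.12 FPKM in AKR 25 wk, 19.68, 23.91 and 22.43 in SAMP 5 wk, and 0.54, 0.27 and 0.64 in SAMP 25 wk. The 3 groups did not overlap anywhere, with SAMP 5 wk highest, AKR 25 wk between and SAMP 25 wk lowest. Of all tested genes 12.6% lay wholly lower in SAMP 25 wk than in AKR 25 wk, 12.3% wholly lower than in SAMP 5 wk, and 6.11% wholly higher and 8.33% wholly lower in SAMP 5 wk than in AKR 25 wk. Means were 11.95 ± 2.5 FPKM in AKR 25 wk, 22.01 ± 2.15 in SAMP 5 wk and 0.483 ± 0.191 in SAMP 25 wk (SD, n = 3 each), so the mean was 24.7 times as high in AKR 25 wk, and 45.5 times as high in SAMP 5 wk, as in SAMP 25 wk. The gap between single libraries was at least 14.4-fold for AKR 25 wk and 30.8-fold for SAMP 5 wk. About 6.9 to 18.2 reads stood behind each SAMP 25 wk value, against 280.4 to 790.4 in the other groups. The size of these ratios therefore rests on few reads. Between the groups without inflammation, the mean was 1.84 times as high in SAMP 5 wk, and the lowest SAMP 5 wk library was 1.39 times the highest AKR 25 wk library. The log2 differences were −3.12 ± 0.21 against AKR 25 wk and −3.96 ± 0.21 against SAMP 5 wk, which ranked 23 and 6 from the lowest of the tested genes, and 0.84 ± 0.21 for SAMP 5 wk against AKR 25 wk (SE).

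Habp2 was high everywhere, and of the 3 genes it differed least between SAMP 25 wk and the other groups. Its level was 41.02, 21.68 and 53.48 FPKM in AKR 25 wk, 51.21, 51.00 and 45.50 in SAMP 5 wk, and 56.19, 104.72 and 64.79 in SAMP 25 wk. The SAMP 25 wk libraries lay above both other groups by narrow gaps, 1.05-fold over the highest AKR 25 wk library and 1.1-fold over the highest SAMP 5 wk library, and those 2 groups overlapped. Means were 38.73 ± 16.02 FPKM, 49.24 ± 3.24 and 75.23 ± 25.9 in AKR 25 wk, SAMP 5 wk and SAMP 25 wk (SD, n = 3 each). The log2 differences of SAMP 25 wk were 0.98 ± 0.32 from AKR 25 wk and 0.55 ± 0.32 from SAMP 5 wk (SE), which ranked 269 and 759 from the highest. Single libraries weigh on both values: without AKR 25 wk replicate 2 the first was 0.62, and without SAMP 25 wk replicate 2 the second was 0.29. SAMP 5 wk differed from AKR 25 wk by 0.43 ± 0.32.

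**Figure D1:**
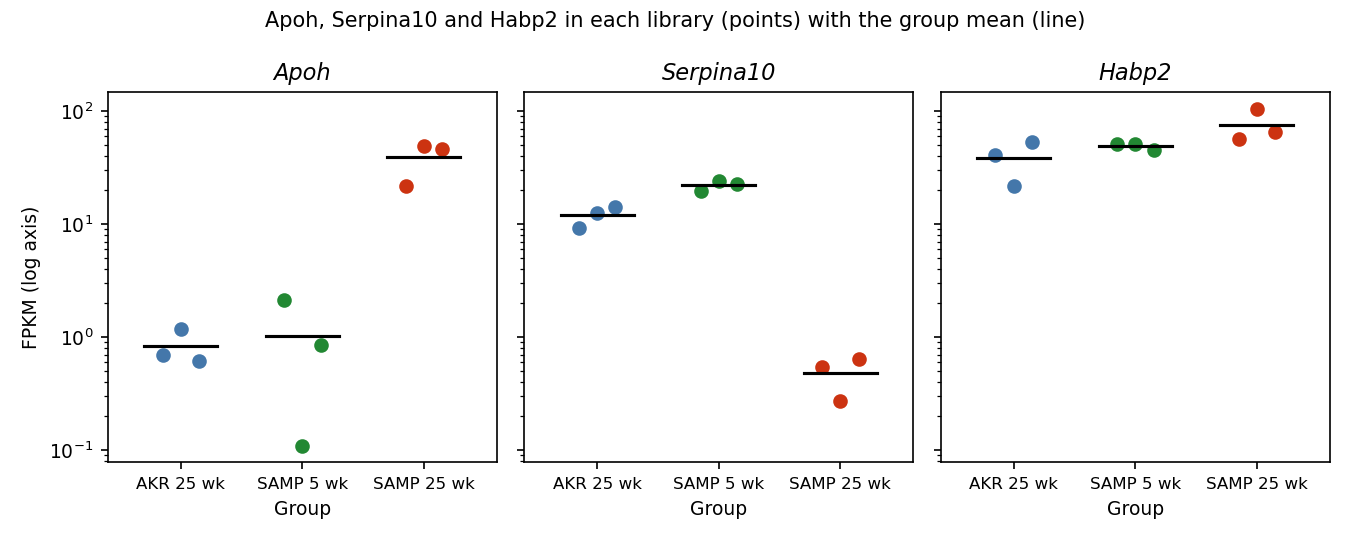
FPKM of Apoh, Serpina10 and Habp2 in each of the 9 libraries by group, on a log axis; points are libraries and bars are group means. Apoh is at 21.93 or above in SAMP 25 wk and at 2.11 or below elsewhere, Serpina10 is at 0.64 or below in SAMP 25 wk and at 9.22 or above elsewhere, and Habp2 spans 21.68 to 104.72.

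Since the 3 genes were chosen from these contrasts, nothing is read from their own lack of overlap. Both contrasts of SAMP 25 wk use the same 3 diseased libraries, so their values stand side by side and are not independent.

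**Figure D2:**
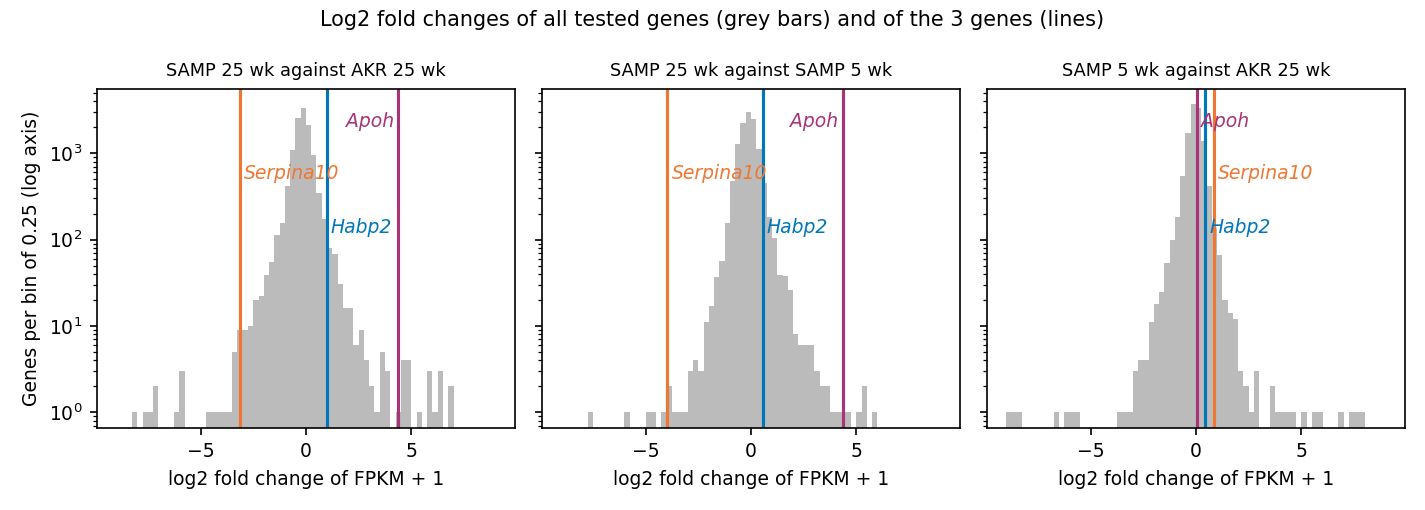
Histograms of log2 differences of all 11775 tested genes on the log2(FPKM + 1) scale (x axis) against the number of genes per bin (log y axis), with a vertical line for each of the 3 genes, for the 3 comparisons. Apoh (4.38 and 4.35) and Serpina10 (−3.12 and −3.96) lie out in opposite tails in both comparisons with SAMP 25 wk, and Habp2 (0.98 and 0.55) lies near the bulk.

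The order of the 3 transcripts differed between the groups below Habp2, which was first everywhere. Summed over the 3 genes, the AKR 25 wk libraries held 35.36 to 68.22 FPKM, the SAMP 5 wk libraries 68.78 to 75.02 and the SAMP 25 wk libraries 78.66 to 154.08. Habp2 gave 58.1% to 80.5% of that sum in every library. Serpina10 came next in all 6 libraries without inflammation, at 18.1% to 35.4%, with Apoh at 0.1% to 3.3%. In the SAMP 25 wk libraries Apoh came next, at 27.9%, 31.9% and 41.4%, and Serpina10 gave 0.7%, 0.2% and 0.6%. FPKM is scaled by transcript length, so these levels can be set against each other between genes, within the limits of 1 assumed transcript per gene. Set against all 18220 rows, Apoh lay at percentile 19.6 to 43.3 in the groups without inflammation and 87.2 to 96.7 in SAMP 25 wk. Serpina10 lay at percentile 71.5 to 90.0 and 25.0 to 32.7 in the same groups, and Habp2 at 86.4 to 98.4 throughout.

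The liver link of the 3 genes was set against defining markers of hepatocytes. A list of 19 hepatocyte markers, all with a row, summed to between 14.4 and 37.24 FPKM in AKR 25 wk, between 3.41 and 6.11 in SAMP 5 wk and between 5.88 and 7.1 in SAMP 25 wk. In SAMP 25 wk, where Apoh alone reached 21.93 to 49.09, 7 of the 19 (Ahsg, Fgb, Serpina3k, Mup3, Mup20, Apoa2 and Cyp2c29) were listed at 0 in all 3 libraries. Alb, the gene for serum albumin, was listed at 0.06 FPKM in 1 of them and at 0 in the other 2. The library with the most hepatocyte marker signal was AKR 25 wk replicate 2, with all 19 above 0 and Alb at 15.31, and Apoh was at 1.18 there. The marker sum in SAMP 25 wk overlapped that in SAMP 5 wk and lay below that in AKR 25 wk. In SAMP 5 wk 9 of the 19 markers were listed at 0 in all libraries. Whether liver RNA had a part in the levels of the 3 genes was not tested. Some of these genes, such as Apoa2 and Ttr, are also known from intestinal cells.

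**Figure D3:**
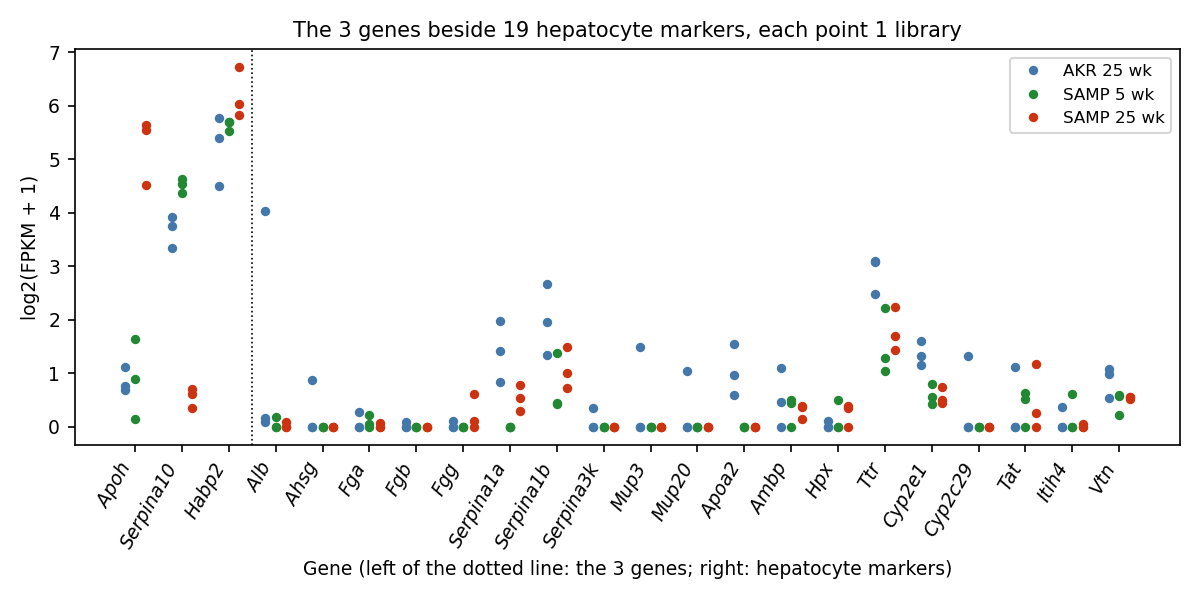
Log2(FPKM + 1) of the 3 genes (left of the dotted line) and of 19 hepatocyte markers (right) by gene, with 1 point per library coloured by group. The SAMP 25 wk points of the markers lie at or near 0 for most genes, and the single high Alb point is AKR 25 wk replicate 2 at 15.31 FPKM.

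Markers of the crypt's own cell types also moved between the groups. In bulk RNA, fewer cells of a type and less RNA per cell cannot be told apart. Sums can be carried by 1 or a few genes, so counts of calls by limma stand beside them, where 1.59% and 0.909% of all tested genes rose against AKR 25 wk and SAMP 5 wk and 1.35% and 0.611% fell. The mean summed level in SAMP 25 wk over that in AKR 25 wk and in SAMP 5 wk was 4.4 and 3.11 for 8 tuft cell markers and 2.31 and 2.6 for 8 goblet cell markers. It was 1.45 and 1.5 for 7 Paneth cell markers, 1.41 and 0.717 for 9 stem cell markers, and 0.0324 and 0.288 for 12 enterocyte markers. The tuft markers summed to 56.64 to 63.08 FPKM in SAMP 25 wk and to 8.99 to 25.53 elsewhere, and the goblet markers to 14380 to 18680 and 4716 to 9509, in both cases without overlap. All 8 tuft markers rose against AKR 25 wk and 4 against SAMP 5 wk. Il17rb, counted in both, was at 0.3 to 1.56 FPKM outside SAMP 25 wk. It passed the filter on low values only through SAMP 25 wk, so its calls support nothing. The goblet markers went both ways: 4 rose and 3 fell against AKR 25 wk, and 3 rose and 2 fell against SAMP 5 wk. Spink4 averaged 11300 FPKM in SAMP 25 wk and carried most of that sum, while Zg16 stood at −5.94 and −4.7 on the log2 scale. Of the stem cell markers 1, Prom1, rose against AKR 25 wk, the median was 0.08 and −0.27, Lgr5 stood at −0.32 and −0.73, and the sum was mostly Olfm4. Of the Paneth markers 2 rose against AKR 25 wk and 1 against SAMP 5 wk. Of 10 enterocyte markers tested 1, Fabp1, rose against both groups and 0 fell, with a median of −1.95 and −0.24. Fabp1 was at 0.65 FPKM or less outside SAMP 25 wk and passed the filter only through that group, so its calls support nothing. In SAMP 5 wk replicate 1, Fabp6 alone was at 1261 FPKM. The enterocyte sum ran from 126.8 to 299.1 FPKM for SAMP 25 wk, 230.1 to 1582 for SAMP 5 wk and 470.1 to 17420 for AKR 25 wk, the highest value being that of replicate 2. Without that library, a comparison added after seeing the data, the ratio to AKR 25 wk was 0.317 in place of 0.0324. Serpina10 in that enterocyte-rich library, at 12.50 FPKM, lay between the other AKR 25 wk libraries. Leukocyte markers (8 genes) stood at 0.385 and 0.421 of the other groups, and 7 blood and platelet markers with a row at 0.385 and 0.194. Of 7 leukocyte markers tested 2, Cd68 and Itgam, fell against AKR 25 wk and 1, Itgam, against SAMP 5 wk. Most of the leukocyte sum was Lyz2 and Jchain, at 121.4 and 141.3 of 299.8 FPKM in AKR 25 wk, and neither was called. Ptprc stood at −0.02 and 0.09. Of 3 blood and platelet markers tested 0 and 2 fell. Enteroendocrine markers (8 genes) stood at 1.67 and 1.08, and 10 stromal markers at 1.11 and 0.822. Of the enteroendocrine markers 1 rose against AKR 25 wk and 0 against SAMP 5 wk, and of the stromal markers limma called 0. The part of these shifts in the levels of Apoh, Serpina10 and Habp2 was not tested.

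Habp2 was set beside Paneth cell genes, since Pla2g2a was among the genes nearest to it in pattern. Per 1000 FPKM of Pla2g2a, a secreted phospholipase of Paneth cells, Habp2 stood at 4.26, 3.98 and 4.53 FPKM in AKR 25 wk, 4.24, 5.15 and 4.27 in SAMP 5 wk, and 3.38, 4.22 and 3.98 in SAMP 25 wk. Against this yardstick the groups overlapped, although Habp2 itself was highest in SAMP 25 wk. AKR 25 wk replicate 2 had both the lowest Habp2 and the lowest Paneth sum (30420 FPKM), and SAMP 25 wk replicate 2 the highest of both (97650). Per 100000 FPKM of the 7 Paneth markers, the range of Habp2 was 71.3 to 77.8 for AKR 25 wk, 90.5 to 108 for SAMP 5 wk and 90.6 to 107 for SAMP 25 wk, so AKR 25 wk stayed below both SAMP groups on that scale. Not all Paneth markers ran this way: Lyz1 lay between 15074 and 36165 FPKM in AKR 25 wk, between 20238 and 25857 in SAMP 5 wk and between 5435 and 9141 in SAMP 25 wk. Pla2g2a was picked for that likeness, and the 9 points share library and depth.

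The genes whose pattern over the 9 libraries lay nearest to each of the 3 were ranked by the root mean square difference of log2(FPKM + 1) after centring each gene on its own mean, among 11741 named genes. For Apoh, whose own root mean square around its mean was 2.11, they were Pnliprp1 (0.58 away), a lipase-related protein known from pancreas, St3gal4 (0.62), a sialyltransferase, Gsdmc (0.72), a gasdermin, and Defb1 (0.74), a defensin. Pnliprp1 was at 0.07 to 2.46 FPKM outside SAMP 25 wk and at 45.89, 50.64 and 45.97 in it, a steeper and tighter step than that of Apoh. A list of 10 pancreatic acinar markers, 5 with a row, summed to at most 0.74 FPKM in any library. For Serpina10 (own value 1.71) they were Defa29 (0.74), a Paneth cell defensin, St3gal1 (0.81), another sialyltransferase, H3c4 (0.85), a histone gene, and Mt1 (0.86), a metallothionein. Defa29 was at 1975 to 5230 FPKM outside SAMP 25 wk and at 368.33, 533.1 and 290.63 in it, and defensins have near-identical copies, so its level is uncertain. For Habp2 (own value 0.55) they were Nucb2 (0.14), a calcium-binding protein, Shf (0.14), an adaptor protein, Pla2g2a (0.15) and Car8 (0.16), a carbonic anhydrase-related protein. Nucb2 followed Habp2 from 25.85 FPKM in AKR 25 wk replicate 2 to 111.69 in SAMP 25 wk replicate 2. These distances are descriptive, and a gene that varies little lies near many others.

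The nearest genes with a row, up to 3 on each side of Apoh, Serpina10 and Habp2, were taken as neighbours, and most of those named here did not pass the test. In SAMP 25 wk 1.35% of all tested genes fell against AKR 25 wk and 0.611% against SAMP 5 wk. Distances are between RefSeq gene spans. Beside Apoh, Prkca, a protein kinase C gene 51408 bp away, fell in SAMP 25 wk against AKR 25 wk (−1.03 ± 0.21, adjusted p = 0.0239 by limma with Benjamini-Hochberg adjustment, threshold 0.05), the opposite direction to Apoh. Its log2 difference from SAMP 5 wk was −0.13 ± 0.21. Cep112, a centrosomal protein gene 10818 bp away on the other side, was at 0.52 to 2.38 FPKM in all libraries and did not pass the test, and neither did Axin2, a target of Wnt signalling, nor Helz, an RNA helicase gene. Cacng1 and E030025P04Rik were at 0.26 FPKM or less. Beside Serpina10, Ppp4r4, a phosphatase regulatory subunit 2835 bp away, was at 3.36, 1.31 and 3.04 FPKM in AKR 25 wk, 3.18, 1.37 and 2.91 in SAMP 5 wk, and 0.26, 0.26 and 0.17 in SAMP 25 wk. It fell with Serpina10 against both groups, by limma, at −1.48 ± 0.32 (adjusted p = 0.029) and −1.46 ± 0.32 (adjusted p = 0.0489). Both calls ended when any 1 of the SAMP 25 wk libraries was left out, and adjusted p reached 0.123 and 0.171 over the alternatives. The Prkca call ended under 6 of 18 alternatives, among them leaving out AKR 25 wk replicate 1 or 2 or SAMP 25 wk replicate 2 or 3, with an adjusted p of up to 0.161. On the other side of Serpina10, the serpin genes Serpina6 and Serpina1f were at 0.4 FPKM or less and Serpina1b did not pass. Beyond Ppp4r4, Ifi27 and Ifi27l2b did not pass either. Beside Habp2, Nrap overlaps it by 784 bp and was at 0.07 to 0.65 FPKM. Whether reads were counted by strand is not given in the sources used here, so reads of the overlap cannot be told apart. Vti1a and Tcf7l2 did not pass. Plekhs1 and 4930552P12Rik were at 0.58 FPKM or less.

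**Figure D4:**
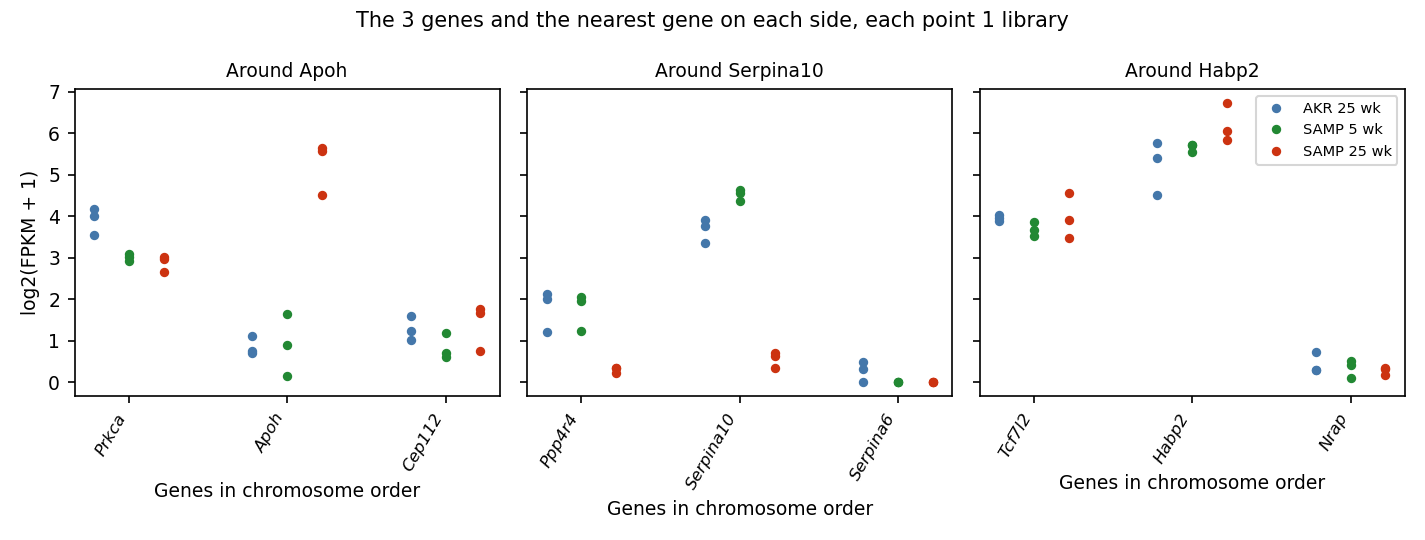
Log2(FPKM + 1) of Apoh, Serpina10 and Habp2 and of the nearest gene with a row on each side of each, in chromosome order, with 1 point per library coloured by group. Ppp4r4, next to Serpina10, is at 0.26 FPKM or less in SAMP 25 wk as Serpina10 is at 0.64 or less, while the genes on both sides of Apoh show no step up in SAMP 25 wk.

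The pathways around the 3 proteins were described through 11 lists of 192 genes, of which 176 had a row and 90 were tested. In SAMP 25 wk against AKR 25 wk, 7 of the 90 rose and 1 fell (limma with Benjamini-Hochberg adjustment at 0.05), where 2.94% of all tested genes were called, 1.59% higher and 1.35% lower. In SAMP 25 wk against SAMP 5 wk, 6 rose and 1 fell, where 1.52% of all tested genes were called, 0.909% higher and 0.611% lower. In SAMP 5 wk against AKR 25 wk limma called 0 of 90, where 0.552% of all tested genes were called, 0.289% higher and 0.263% lower. At an unadjusted p under 0.05 there were 31, 30 and 17 of the 90, while 15.5%, 16.5% and 7.47% of all tested genes passed that mark in the same order. The median log2 difference over the lists was −0.31, −0.12 and −0.16 in these comparisons, against −0.15, −0.12 and −0.03 over all tested genes. Scaling moved both medians: against AKR 25 wk that of all genes was −0.26 with libraries rescaled to equal sums (TPM) and −0.01 with equal medians, and that of the lists −0.44 and −0.17. Of the calls over all genes against AKR 25 wk 54.0% were higher, against 66.7% with equal medians, 64.9% with quantile normalization and 24.3% with library weights. Against SAMP 5 wk 59.8% were higher, against 71.3% with quantile normalization, 71.7% with no filter on low values and 34.3% with library weights. With library weights the direction of the list calls against AKR 25 wk turned, with 10 of 33 higher, and without SAMP 25 wk replicate 1 it was 4 of 7. The p-values set each group difference against the spread between libraries within groups, moderated over genes. They do not separate strain, age and inflammation.

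Partners of Serpina10 in clotting were at or near 0. F10, the gene of the clotting factor that its protein inhibits, was at 0 to 0.24 FPKM over the 9 libraries, and Proz, the cofactor protein Z, was at 0 to 0.96, with the highest value in AKR 25 wk replicate 2. F7, a substrate of the Habp2 protease, was at 0 to 0.16. Of 18 procoagulant genes 15 had a row and 2 were tested. Of these, F3, the gene of tissue factor, which starts clotting, was at 1.80, 1.98 and 1.38 FPKM in AKR 25 wk, 1.02, 1.33 and 1.13 in SAMP 5 wk, and 3.31, 4.79 and 3.0 in SAMP 25 wk. It rose against SAMP 5 wk (1.11 ± 0.24, adjusted p = 0.0468, limma) and did not pass against AKR 25 wk (0.78 ± 0.24, adjusted p = 0.13). Of the other anticoagulant genes 7 were tested and limma called 0 in the 2 contrasts of SAMP 25 wk, with 3 and 2 at an unadjusted p under 0.05. Among these Tfpi, the tissue factor pathway inhibitor, had log2 differences of −1.08 and −0.99, and Proc, the gene of protein C, was at 0.55 to 4.98 FPKM over all libraries. Of 5 fibrinolysis genes tested limma called 0 in each contrast, with 1 and 2 at an unadjusted p under 0.05, and Plg, the gene of plasminogen, was listed at 0 in all libraries but 1. Against AKR 25 wk and SAMP 5 wk, limma called 2.94% and 1.52% of all tested genes, and 15.5% and 16.5% passed unadjusted. In lists this short 0 calls lie near the shares called.

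Serpins of the same clade as Serpina10 gave calls in the higher direction. Of 24 clade A genes 19 had a row and 4 were tested. Serpina3n, an acute-phase antiprotease, rose against both groups (2.14 ± 0.51, adjusted p = 0.0445, and 2.29 ± 0.51, adjusted p = 0.0498, limma), and Serpina3h did too (1.89 ± 0.38, adjusted p = 0.0203, and 1.71 ± 0.38, adjusted p = 0.0498, limma). The Serpina3 genes are a cluster of close copies in mice, so reads may be split between them and these values are uncertain. Serpina1b had log2 differences of −0.91 ± 0.39 from AKR 25 wk and 0.33 ± 0.39 from SAMP 5 wk and did not pass. Of those too low to be tested, Serpina1a averaged 1.80 FPKM in AKR 25 wk, 0 in SAMP 5 wk and 0.473 in SAMP 25 wk, and Serpina9 averaged 0.593, 0.35 and 0.05, so the clade held members that were lower in SAMP 25 wk than in AKR 25 wk too.

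The other apolipoproteins gave no call by limma in 6 tested genes, with 4 and 0 at an unadjusted p under 0.05 against AKR 25 wk and SAMP 5 wk. Of all tested genes 2.94% and 1.52% were called, and 15.5% and 16.5% passed unadjusted. The median log2 difference of these 6 apolipoproteins was −2.03 against AKR 25 wk and −0.14 against SAMP 5 wk. AKR 25 wk replicate 2 held 1364 FPKM of Apoa1 and 184.37 of Apob, against at most 13.33 and 21.72 elsewhere. The part of that library in the median was not tested. Of 5 tested genes for receptors that human or mouse beta-2-glycoprotein I is reported to bind, Tlr4, the receptor for bacterial lipopolysaccharide, rose against both groups (1.10 ± 0.25, adjusted p = 0.0344, and 1.21 ± 0.25, adjusted p = 0.0327, limma). The lipoprotein receptor genes Lrp8, Vldlr and Lrp1 did not pass.

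Relatives and ligands of Habp2 gave no call, where 2.94% and 1.52% of all tested genes were called against AKR 25 wk and SAMP 5 wk. In lists this short 0 calls lie near those shares. Hgfac, the gene of the hepatocyte growth factor activator and a serine protease related to Habp2, lay between 8.97 and 11.91 FPKM in AKR 25 wk, between 5.08 and 6.14 in SAMP 5 wk and between 9.30 and 10.76 in SAMP 25 wk. It differed from AKR 25 wk by −0.03 and from SAMP 5 wk by 0.75 on the log2 scale, the latter with an adjusted p of 0.0809 (limma). Of 8 genes of growth factor activation limma called 0, with 1 and 4 at an unadjusted p under 0.05. Of 6 genes that make, degrade or bind hyaluronan, the polysaccharide ligand of Habp2, it called 0, with 1 and 2. Of all tested genes 15.5% and 16.5% passed the unadjusted mark. Cd44, the main hyaluronan receptor, differed by 0.06 and 0.55.

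Other plasma proteins usually made by liver showed a few single calls. Of 18 complement genes tested, Cfi, the protease that cleaves C3b and C4b, was at 0.00 to 0.22 FPKM in the other groups and at 2.64, 16.77 and 4.57 in SAMP 25 wk. Like Apoh it passed the filter on low values only through SAMP 25 wk, so its calls, which are in the counts given for the lists, support nothing. Among 14 further plasma protein genes, Rbp4, the retinol carrier, rose against AKR 25 wk (2.23 ± 0.44, adjusted p = 0.0187, limma), as did Igf1, a growth factor also made by stroma (1.54 ± 0.31, adjusted p = 0.0216). Against SAMP 5 wk these were 1.91 and 1.37 and did not pass. Agt, the gene of angiotensinogen, fell against SAMP 5 wk (−1.16 ± 0.24, adjusted p = 0.0365, limma) and stood at 0.01 against AKR 25 wk.

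Most transcription factors shared by liver and gut did not pass the test. Of 15 tested, Foxa3, a forkhead factor of liver and secretory epithelium, rose from 10.4 to 14.1 FPKM in AKR 25 wk and 6.7 to 11.72 in SAMP 5 wk to 22.8 to 27.58 in SAMP 25 wk (1.0 ± 0.23, adjusted p = 0.0416, and 1.25 ± 0.23, adjusted p = 0.022, limma). Cdx1, an intestinal homeobox factor, fell against AKR 25 wk (−0.86 ± 0.19, adjusted p = 0.0344, limma) and stood at −0.41 against SAMP 5 wk. Hnf4a stood at −0.58 and −0.34 and Hnf4g at −1.28 and −0.93, none past the threshold. No binding of any factor to the promoter windows was measured.

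The 10 list genes named here gave 15 calls. Each ended under 1 to 11 of the 17 or 18 alternatives run for it, and none changed sign. Leaving Cfi aside, the call of Serpina3h against AKR 25 wk ended under 2 of 17 alternatives, and that against SAMP 5 wk under 10 of 17. The calls of Serpina3n ended under 11 and 10 of 18, of Tlr4 under 10 and 7 of 17, of Foxa3 under 10 and 6 of 18 and of F3 under 10 of 17. Those of Cdx1, Igf1 and Rbp4 ended under 8, 6 and 5 of 18, and that of Agt under 7 of 17. The 8 calls against AKR 25 wk became 4 when any 1 of the AKR 25 wk libraries was left out, and 7, 1 and 3 without SAMP 25 wk replicate 1, 2 and 3. The 7 against SAMP 5 wk became 6, 0 and 1 without SAMP 5 wk replicate 1, 2 and 3, and 7, 1 and 1 without SAMP 25 wk replicate 1, 2 and 3.

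**Figure D5:**
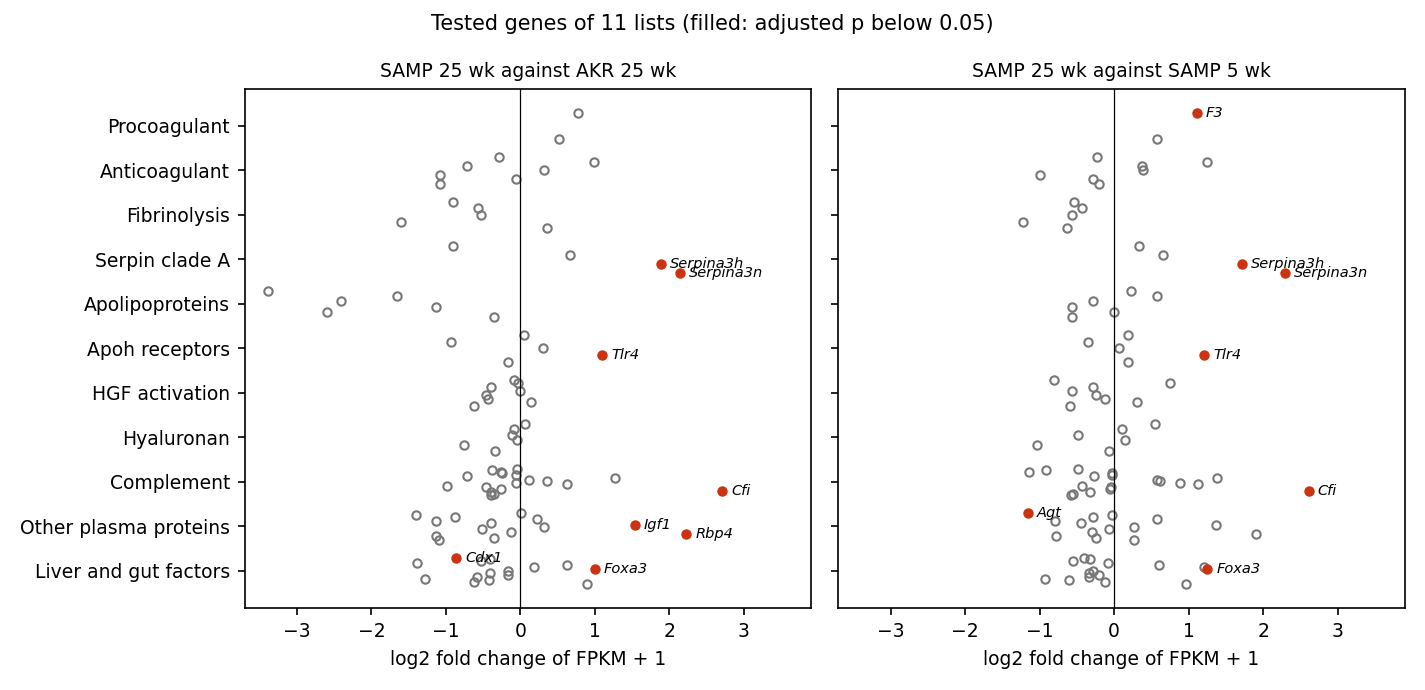
Log2 differences of the tested genes of the 11 lists, 1 point per gene, for SAMP 25 wk against AKR 25 wk (left) and against SAMP 5 wk (right); filled, named points have an adjusted p below 0.05. Most list genes lie between −1 and 1, and Cfi (2.71 and 2.61), which passed the filter on low values only through SAMP 25 wk, is the highest in both panels.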

How the data were processed

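The 9 libraries hold RNA of stem cell niche taken by laser capture. Groups came from strain and age in the labels. Replicate numbers follow sample order and pair nothing. The submitters' processing notes name Trimmomatic, STAR, HTSeq, DESeq2 and the GRCm38 build, without versions or roles. Values are the FPKM that the authors deposited, per the file headers, with NCBI gene numbers; the tool that made them is not given in the sources used here. Gene names came from RefSeq's annotation by gene number for 18155 rows, and 63 had no name.

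Count models were not used on FPKM. Depths and read numbers are estimates from the steps between low values, of which 79.7% to 86.8% came within 0.2 of whole reads (40% by chance spacing). Genes with a mean of at least 1 FPKM entered limma 3.58.1 (R 4.3.3) as log2(FPKM + 1), in 1 joint fit of the 9 libraries with 3 group means, trended variance moderation and Benjamini-Hochberg adjustment over 11775 genes at 0.05. The pseudocount of 1 understates fold changes of low genes. Figures were made with matplotlib 3.10.9. Alternatives changed the pseudocount, filter, scaling, variance prior, library weights or libraries used.

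The 3 genes, the gene lists and the tests were chosen with earlier results of these data known, and the promoter motifs after the windows were seen. Genes named are those 3, list genes past the threshold, F10, F7, Proz, Proc, Plg, Hgfac, Alb, Hnf4a and Hnf4g whatever they showed, up to 3 neighbours on each side, and the 4 genes nearest in pattern to each. Some further genes were named after their values were seen, and a few that the rule takes are not reported here.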

Additional observations from a re-analysis of the deposited data

How the results depend on the processing

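Over 18 alternatives none of the log2 differences of Apoh, Serpina10 or Habp2 between SAMP 25 wk and another group changed sign. The 3 genes were chosen on these values, and their SAMP 25 wk libraries overlapped neither other group. Only a change of scaling could therefore have changed a sign, and the constant sign supports nothing. Against AKR 25 wk Apoh was 5.36 with a pseudocount of 0.1 and 2.85 with 5, and 4.18 to 4.74 with single libraries left out; against SAMP 5 wk it was 5.60, 2.82 and 3.98 to 4.72. Serpina10 was −4.41 and −1.62 with these pseudocounts, −3.52 rescaled to TPM, −2.87 with library weights and −3.28 to −2.99 with single libraries left out against AKR 25 wk, and −5.30, −2.30, −4.32 rescaled to TPM and −4.04 to −3.85 against SAMP 5 wk. With single libraries left out Habp2, with an SE of 0.32, was 0.62 to 1.25 against AKR 25 wk, 0.29 to 0.73 against SAMP 5 wk and 0.07 to 0.70 between SAMP 5 wk and AKR 25 wk. Between SAMP 5 wk and AKR 25 wk, where Apoh stood at 0.03, it ran from −0.34 to 0.40.

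The 346 genes called against AKR 25 wk became 2514 with library weights, 158 without both libraries that stood apart, and 186 to 492 with single libraries left out, and the 8 list genes became 33, 1 and 1 to 7, 4 with no filter, 5 with a mean of at least 5 FPKM and 5 with only the groups compared. The 179 called against SAMP 5 wk became 99 with no filter, 300 with quantile normalization, 2297 with weights and 82 to 528 with single libraries left out. The 7 list genes there became 3 with a pseudocount of 0.1, 0 with no filter, 1 with a mean of at least 5, 11 with quantile normalization or equal medians, 28 with weights, 2 without both libraries and 0 to 7 with single libraries left out. The 65 called between SAMP 5 wk and AKR 25 wk became 196 with weights, 40 without both libraries and 36 to 50 with single libraries left out, and the 0 list genes became 1 with quantile normalization or equal medians, 6 with weights and 0 to 1. Weights ran from 0.368 to 6.06, the highest for SAMP 25 wk replicate 3. Leaving out libraries leaves fewer samples, and otherwise the cause was not tested. No paired analysis was possible because the labels carry no replicate numbers shared by the groups. Depth limits the low values of Apoh and Serpina10, and the 3 libraries per group limit every error given here.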
